A study of Homo sapiens with 60 samples.

Results

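The comparison set A549 cells exposed to the medium dose of an ethanol extract of Polygalae Radix against cells given vehicle. Libraries were chosen by their titles, which gave 2 libraries of the medium dose (76 µg/mL, replicates 2 and 3) and 3 vehicle libraries, or 5 of the 60 libraries of the series. A549 is an established human lung carcinoma line of epithelial character, and Polygalae Radix is the dried root of a Polygala species, a herbal drug rich in triterpenoid saponins. The series profiled A549 cells by RNA sequencing after exposure to several herbal extracts and prescriptions, each at up to 3 doses, for 24 h. The vehicle was DMSO, which the labels give as 0.1% and the series text as 2%. The same extract at its low dose (15.2 µg/mL, 2 libraries) served as a second reference, and its high dose (380 µg/mL, 2 libraries) is given by level only, with no test. Nothing in the labels tells if the replicates were grown as separate cultures. Each p-value therefore reflects only how far libraries of the same group differ from one another, which may be technical. Unless stated otherwise, that spread was shared across 57 libraries of the series.

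The deposited expected counts summed to 26115827, 29712475 and 27715220 in vehicle and to 19410098 and 26488194 in medium dose replicates 2 and 3. The treated libraries differed from each other in composition. Mitochondrial transcripts took 11.5% to 11.8% of the counts in vehicle, 17.9% in replicate 2 and 8.01% in replicate 3. All libraries of the series also fell into 2 classes by the level of an unnamed transcript, ENSG00000282955, and the vehicle libraries and replicate 2 belonged to one class while replicate 3 and both low dose libraries belonged to the other. The library names place the vehicle in a library set of its own, so that set and treatment cannot be told apart in the comparison with vehicle. The summed level of 11 epithelial and alveolar carcinoma markers was between 15190 and 15590 CPM in vehicle and between 8418 and 11680 CPM in the medium dose. Marker sums are scaled to the raw library total, and every other CPM value in the text (counts scaled to a common library size) to the TMM-normalised total. The dehydrogenase ALDH1A1, the keratins KRT8 and KRT18 and the reductase AKR1B10 were the most abundant of them, and 5 of the 7 markers tested fell. SFTPA1, a surfactant gene, was at 0 in all 5 libraries. NKX2-1 and the surfactant genes SFTPB and SFTPC had no more than 4 expected counts in any of these libraries. The 7 fibroblast markers summed to 35.6 to 36.8 CPM in vehicle and 28.2 to 31.2 CPM in the medium dose, the 6 endothelial markers stayed under 0.670 CPM, and the 7 leukocyte markers summed to 14.3 to 15.9 CPM and 10.2 to 20.5 CPM. Of the leukocyte markers 3 (PTPRC, CD3E and MS4A1) were at 0 in all 5 libraries. Most of the leukocyte sum came from the single gene CD68, and most of the fibroblast sum from COL1A1. In bulk RNA, fewer cells of a kind and less RNA per cell cannot be told apart.

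Some background helps to read the gene groups. When amino acids run short or protein folding fails in the endoplasmic reticulum, phosphorylation of eIF2 alpha slows general translation and favours translation of ATF4. ATF4 pairs with C/EBP proteins and switches on genes of serine and asparagine synthesis, amino acid import and aminoacyl-tRNA synthesis. Heat shock factor 1 drives the cytosolic chaperones, which fold newly made and damaged proteins. The NR4A proteins are orphan nuclear receptors whose transcripts are induced within hours by calcium, cyclic AMP and other signals.

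Genes were called where the adjusted p of edgeR's quasi-likelihood F-test was under 0.05 over 18396 genes. The medium dose differed from vehicle in 3375 genes (18.3%), with 1600 higher (8.7%) and 1775 lower (9.65%). Most changes were small, since only 163 genes rose (0.886%) and 121 fell (0.658%) by at least 2-fold. When the spread was estimated from the 5 libraries alone, 894 genes were called, of which 23.8% were higher, against 47.4% higher in the fit across 57 libraries. Both treated libraries lay above every vehicle library in 3748 genes (20.4%) and below every one in 3752 (20.4%). Of the called genes, 1526 higher (8.3% of genes tested) and 1768 lower (9.61%) had both treated libraries beyond the vehicle range. A fit with library class as a covariate also called 1476 of the higher (8.02% of genes tested) and 1716 of the lower genes (9.33%) in the same direction. The fits that left out 1 library in turn all called 367 of the higher genes (1.99%) and 767 of the lower genes (4.17%).

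The difference from the vehicle mean was taken in each treated library separately. In called higher genes the median was 0.40 on the log2 scale in replicate 2 and 0.38 in replicate 3. In called lower genes it was -0.47 and -0.42. Both libraries lay on the same side of the vehicle mean in 99.2% of the called higher genes, in all called lower genes and in 60.4% of all genes tested, and the calling itself favours such agreement.

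**Figure D1:**
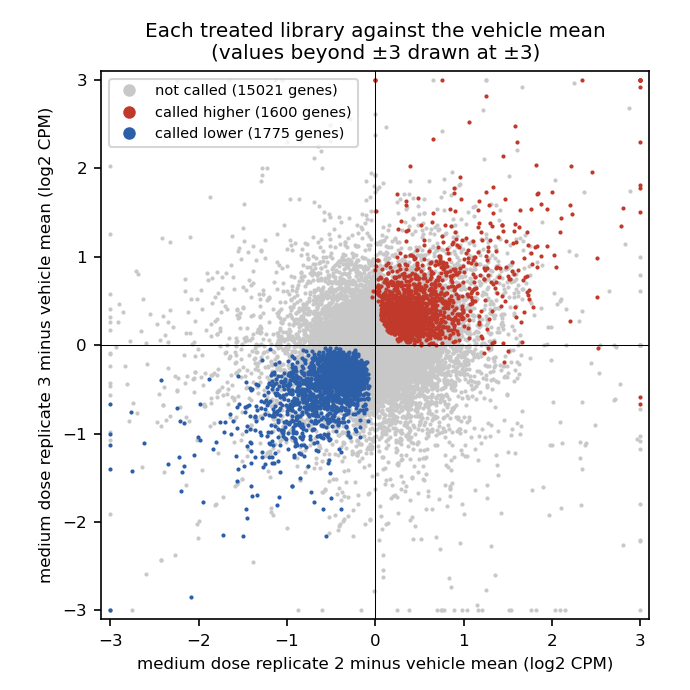
Difference in log2 CPM of each gene from the vehicle mean in medium dose replicate 2 (horizontal axis) and replicate 3 (vertical axis), with values beyond 3 drawn at the edge and genes called higher or lower in colour. Of the called genes, 1587 of 1600 higher and all 1775 lower lie in the quadrants where both libraries moved the same way, and the uncalled genes spread around 0 with 60.4% of all genes on the same side in both libraries.

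The clearest group among the fallen genes was the cytosolic aminoacyl-tRNA synthetases, the enzymes that load amino acids onto tRNA. Of 20 genes tested 19 fell and none rose, against 9.65% lower among all genes. The shares over all genes, 8.7% higher and 9.65% lower, are the reference for each list set against vehicle below. The median log2 fold change was -0.55, against 0.03 over all genes, and was -0.55 in replicate 2 and -0.56 in replicate 3. Leaving out 1 library in turn left 14 to 18 of them called. Among all genes called lower, 59.5% had both treated libraries below all 16 low dose libraries of 6 other extracts. Of the 19 fallen synthetases 18 did so. These 6 extracts are those with 2 or 3 libraries per dose, and Okbyeongpung-san, with 1, was left out of this reference throughout.

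EPRS1 (ENSG00000136628, chromosome 1, 219968601 to 220046658 in GRCh38), which charges both glutamyl- and prolyl-tRNA, had the largest change. It stood at 242, 229 and 243 CPM in vehicle and at 89.4 and 111 CPM in the medium dose, so the groups were far apart. The means were 238 ± 7.82 CPM (SD, n = 3) and 100 ± 15.6 CPM (SD, n = 2), and the log2 fold change was -1.25 ± 0.06 (SE, edgeR adjusted p = 2.6e-18). The low dose libraries, at 223 and 236 CPM, stood near vehicle, and the high dose libraries were at 26.1 and 32.1 CPM. VARS1, the valyl-tRNA synthetase, fell from 132, 128 and 126 CPM to 63.8 and 61.4 CPM. AARS1 (ENSG00000090861, chromosome 16, 70252295 to 70289543), the alanyl-tRNA synthetase, stood at 298, 309 and 298 CPM in vehicle, 164 and 173 CPM in the medium dose and 298 and 292 CPM in the low dose. Its log2 fold change was -0.84 ± 0.06 against vehicle (edgeR adjusted p = 3.39e-14) and -0.81 ± 0.06 against the low dose (edgeR adjusted p = 1.6e-12). For each of these 3 genes both medium dose libraries lay below every vehicle and every low dose library. The exceptions in the list, picked after their values were seen, were FARSA and RARS1. FARSA, a subunit of the phenylalanyl-tRNA synthetase, was not called, with 78.5 CPM in replicate 2, within the vehicle range of 75.5 to 78.6 CPM, and 62.7 CPM in replicate 3. RARS1, the arginyl-tRNA synthetase, fell by 0.15 on the log2 scale with an edgeR adjusted p of 0.0466.

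**Figure D2:**
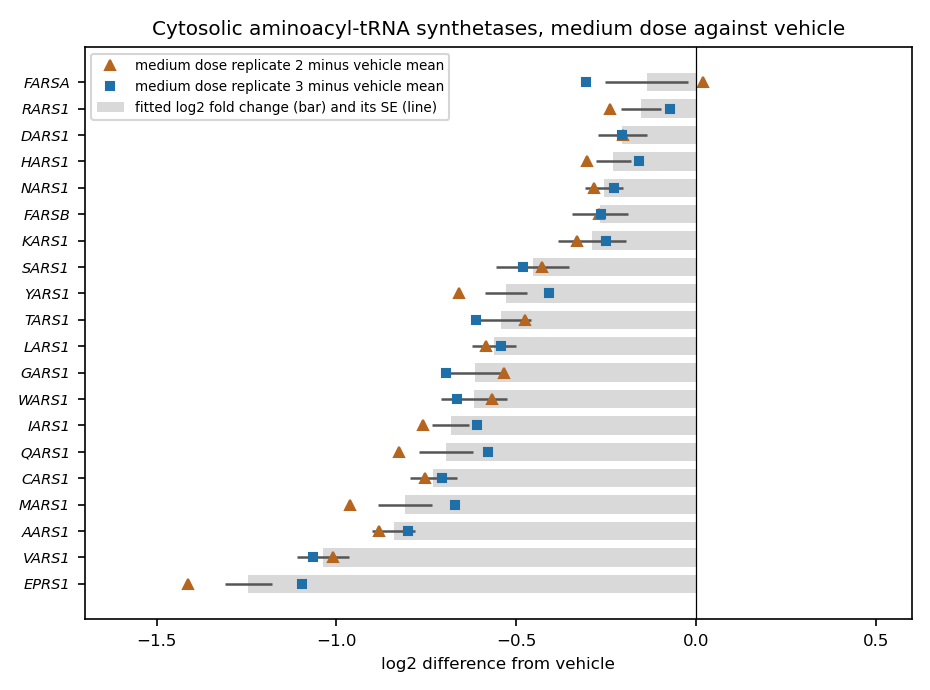
Log2 fold change of the medium dose against vehicle for the 20 cytosolic aminoacyl-tRNA synthetase genes, with bars for the edgeR estimate, error bars for its SE and points for each treated library's difference from the vehicle mean. The bars run from -1.25 for EPRS1 to -0.14 for FARSA, the gene that was not called.

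The other ATF4-associated genes were divided. Of 25 genes tested on an integrated stress response list, 10 fell and 2 rose, with a median of -0.22 (-0.47 in replicate 2 and -0.09 in replicate 3). The genes that fell included biosynthetic enzymes. PHGDH, the first enzyme of serine synthesis, stood at 62.5, 63.8 and 64.6 CPM in vehicle and at 24.7 and 32.7 CPM in the medium dose, a log2 fold change of -1.14 ± 0.09 (edgeR adjusted p = 1.22e-13). ASNS, the asparagine synthetase, went from 98.7, 103 and 98.3 CPM to 44.8 and 57.9 CPM, and both low dose libraries, at 108 and 109 CPM, were above vehicle. SHMT2 and ALDH1L2, mitochondrial enzymes of one-carbon metabolism, fell by 0.84 and 1.09 on the log2 scale. Treated and vehicle libraries did not overlap in any of these 4 enzymes.

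CHAC1 (ENSG00000128965, chromosome 15, 40952962 to 40956519), which degrades glutathione and is a well-known ATF4 target, had the largest fall on the list. Its level was low in all libraries, at 6.86, 6.65 and 5.87 CPM in vehicle, 1.61 and 1.82 CPM in the medium dose and 4.28 and 4.11 CPM in the low dose. The log2 fold change was -1.90 ± 0.21 against vehicle (edgeR adjusted p = 5.93e-09) and -1.27 ± 0.23 against the low dose (edgeR adjusted p = 0.00013). The mRNA of ATF4 itself was not called, at 278, 291 and 274 CPM in vehicle and 317 and 277 CPM in the medium dose. DDIT3, which encodes the stress factor CHOP, was not called either, at 8.13 to 8.45 CPM in vehicle and 7.65 and 9.79 CPM in the medium dose.

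The 2 members that rose were ATF3 and PPP1R15A. ATF3, a stress-induced transcription factor, stood at 5.79, 5.24 and 5.23 CPM in vehicle and at 7.44 and 9.23 CPM in the medium dose. The log2 fold change of 0.63 ± 0.14 (edgeR adjusted p = 0.000713) became 0.45 without medium dose replicate 3, where the gene was no longer called (adjusted p = 0.065). PPP1R15A, which encodes the GADD34 subunit that reverses eIF2 alpha phosphorylation, went from 34.9, 35.7 and 33.3 CPM to 52.9 and 42.4 CPM. Against the low dose it was 0.56 ± 0.14 higher on the log2 scale (edgeR adjusted p = 0.00611).

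The promoters were searched for the core of the C/EBP-ATF response element, TGATGNAA, on both strands in the 250 bases before each RefSeq start site (GRCh38.p14). The core was present in 5 of the 21 integrated stress response genes with a listed promoter and in 3 of the 16 synthetase genes, against 3.89% of all 27305 genes. The windows below are shown because they carry the match in genes with values given here. The capitals mark the core, which reads as its reverse complement where it ends in ATCA, and each line runs 5′ to 3′ on the strand of the gene.
ASNS, chr7:97872458-97872487, minus strand, exon: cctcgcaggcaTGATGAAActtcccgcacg
CHAC1, chr15:40953251-40953280, plus strand, exon: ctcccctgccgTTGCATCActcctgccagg
ATF3, chr1:212565166-212565273, plus strand, intergenic: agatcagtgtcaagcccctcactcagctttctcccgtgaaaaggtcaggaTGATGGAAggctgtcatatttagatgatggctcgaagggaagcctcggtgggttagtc
AARS1, chr16:70289675-70289704, minus strand, exon of the neighbour DDX19B: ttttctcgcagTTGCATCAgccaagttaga
GARS1, chr7:30594834-30594863, plus strand, exon: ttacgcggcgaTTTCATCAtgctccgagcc
IARS1, chr9:92293698-92293721, minus strand, exon: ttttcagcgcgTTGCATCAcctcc
Of these 6 genes 5 fell and ATF3 rose. GARS1, the glycyl-tRNA synthetase, fell by 0.61 and IARS1, the isoleucyl-tRNA synthetase, by 0.68 on the log2 scale.  A match is a description of the sequence only, and binding was not measured.

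Among 13 amino acid transporters 8 fell and 1 rose, with a median of -0.32. The 8 lower calls came to 5 without medium dose replicate 2 and to 4 without replicate 3. SLC1A4, a neutral amino acid carrier, stood at 35.3, 35.9 and 33.2 CPM in vehicle and at 21.6 and 21.9 CPM in the medium dose. SLC43A1, a carrier of large neutral amino acids, was the member that rose, from 3.37 to 3.93 CPM in vehicle to 5.88 and 5.93 CPM in the medium dose. SLC7A11, the cystine carrier, was not called, and its treated libraries lay on opposite sides of vehicle, at 298 and 556 CPM against 432 to 490 CPM.

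Heat shock chaperones formed another group of fallen genes. Of 20 tested, 14 fell and none rose, with a median of -0.44 (-0.46 in replicate 2 and -0.53 in replicate 3), and 12 to 15 were called lower when 1 library was left out. HSP90AA1, the stress-inducible form of the HSP90 chaperone, stood at 2841, 2877 and 2877 CPM in vehicle and at 1411 and 1383 CPM in the medium dose. On the log2 scale the change was -1.04 ± 0.07 (edgeR adjusted p = 1.09e-14), and the groups were far apart. The low dose libraries were lower than vehicle too, at 2458 and 2462 CPM, and the high dose libraries stood at 374 and 310 CPM. HSP90AB1, the constitutive form, went from 2098, 2217 and 2210 CPM to 1226 and 1285 CPM. HSPD1, the mitochondrial HSP60 chaperonin, stood between 1171 and 1173 CPM in all 3 vehicle libraries and at 572 and 830 CPM in the medium dose, so the treated libraries differed from each other by more than the vehicle libraries did. HSPA1A and HSPA1B also fell, but these near-identical copies share reads and their separate values are uncertain. Vehicle itself lay above all 16 low dose libraries of the 6 reference extracts in 5 of the 20 genes, HSP90AA1 and HSPA1B included.

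The heat shock element, searched on both strands as 3 alternating GAA and TTC units with 2 bases of any kind between neighbours, was found in 5 of 17 chaperone promoters and in 0.557% of all genes. The windows of 4 of these genes are shown, with the matches in capitals and each line 5′ to 3′ on the strand of the gene (RefSeq, GRCh38.p14).
HSP90AA1, chr14:102087111-102087140, minus strand, exon: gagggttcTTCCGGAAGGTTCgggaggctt
HSP90AB1, chr6:44247728-44247843, plus strand, intron: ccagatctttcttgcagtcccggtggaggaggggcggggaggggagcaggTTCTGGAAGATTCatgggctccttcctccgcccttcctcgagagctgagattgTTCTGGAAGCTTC
HSPD1, chr2:197500061-197500090, minus strand, exon of HSPD1 and HSPE1: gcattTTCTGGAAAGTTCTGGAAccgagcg
HSPA8, chr11:123062345-123062374, minus strand, exon: gcgagcttGAAAGTTCCAGAAcgctgcggt
All 4 genes fell, by 0.45 on the log2 scale for HSPA8, the constitutive HSC70 chaperone, and by 1.04 for HSP90AA1. The fifth gene with a match, CHORDC1, an HSP90 partner, fell by 0.35.

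In the endoplasmic reticulum 7 of 19 chaperone and unfolded protein response genes fell and none rose, with a median of -0.09. HSPA5, the BiP chaperone, stood at 638, 642 and 647 CPM in vehicle, 428 and 483 CPM in the medium dose and 626 and 650 CPM in the low dose. The fitted log2 fold change was -0.50 ± 0.07 (edgeR adjusted p = 2.4e-07), and the medium dose libraries lay below every vehicle and low dose library. XBP1, whose spliced form drives the unfolded protein response, was not called, at 54.8 to 60.5 CPM in vehicle and 53.5 and 54.8 CPM in the medium dose.

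**Figure D3:**
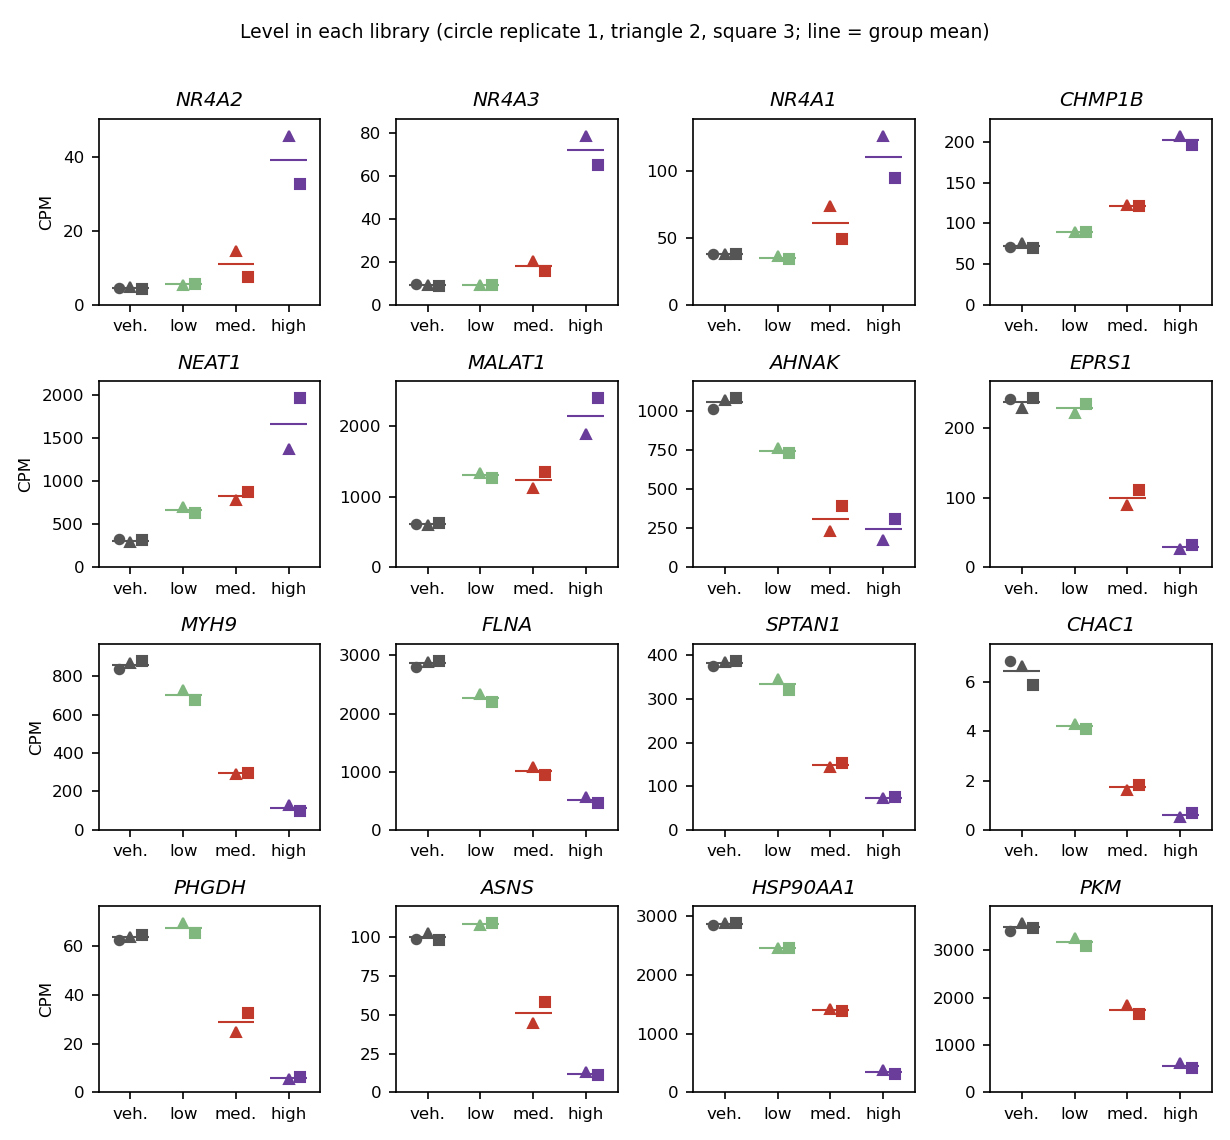
CPM in each vehicle, low, medium and high dose library for 16 genes named in the text, 1 point per library on separate axes. EPRS1, HSP90AA1, MYH9 and PKM have both medium dose points below all vehicle and low dose points, NR4A3 and CHMP1B have both above, and NEAT1 has low dose points well above vehicle.

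Genes of central metabolism fell as well. Of 19 genes of glycolysis and of glucose and lactate transport, 13 fell and 1 rose, with a median of -0.38. All 13 had both treated libraries below the 16 low dose libraries of the 6 reference extracts, as had 59.5% of all genes called lower. The median was -0.62 in replicate 2 and -0.31 in replicate 3. PKM, the pyruvate kinase, stood at 3401, 3569 and 3479 CPM in vehicle and at 1854 and 1645 CPM in the medium dose, a log2 fold change of -0.99 ± 0.10 (edgeR adjusted p = 5.19e-10). ENO1, the main enolase, went from 2345, 2369 and 2360 CPM to 961 and 1436 CPM. LDHA, a lactate dehydrogenase subunit, went from 1863, 1840 and 1824 CPM to 1105 and 1263 CPM. No treated library overlapped vehicle in these 3 genes. The member that rose was ENO2, the neuronal enolase, from 28.9 to 31.6 CPM in vehicle to 37.3 and 39.8 CPM.

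Genes controlled by NRF2, the regulator of antioxidant defence that is constitutively active in A549 cells, were mixed. Of 26 tested, 9 fell and 4 rose, with a median of -0.12, and only 5 were lower without medium dose replicate 2. The members that fell included TKT, the transketolase, and ALDH3A1, an aldehyde dehydrogenase. TKT stood at 1691, 1717 and 1683 CPM in vehicle and at 907 CPM in both treated libraries. ALDH3A1 went from 945, 920 and 929 CPM to 450 and 480 CPM. NQO1, the quinone reductase, went from 1535, 1518 and 1553 CPM to 781 and 1234 CPM, and it was no longer called without replicate 2 (log2 fold change -0.32, edgeR adjusted p = 0.071). GCLM, a subunit of the glutamate-cysteine ligase, was among the members that rose, from 218 to 235 CPM in vehicle to 257 and 297 CPM. HMOX1, the heme oxygenase, was not called, at 159 to 163 CPM in vehicle and 169 and 178 CPM in the medium dose.

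Lipid genes fell in part. Of 12 genes of fatty acid synthesis 6 fell and none rose, with a median of -0.23. FASN, the fatty acid synthase, stood at 625, 632 and 646 CPM in vehicle and at 378 and 311 CPM in the medium dose, but the low dose libraries, at 508 and 486 CPM, were already below vehicle. ACLY, which supplies cytosolic acetyl-CoA, went from 740, 757 and 744 CPM to 414 and 429 CPM, with 694 and 685 CPM in the low dose. HADHA, a subunit of the mitochondrial enzyme of fatty acid oxidation, fell from 256, 268 and 258 CPM to 129 and 144 CPM. It had the largest fall in a list of 12 PPAR targets and fatty acid oxidation genes, of which 2 fell and 1 rose. That list had a median of -0.07, with 0.04 in replicate 2 and -0.14 in replicate 3. Of 26 cholesterol genes 6 fell and none rose, with a median of -0.16, and the lower calls came to 4 without vehicle replicate 2 and to 3 without medium dose replicate 2.

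For several lists of housekeeping genes the treated libraries went apart. The median of 25 proteasome subunits was -0.47 in replicate 2 and 0.06 in replicate 3, and the number of lower calls went from 6 to 2 without replicate 2 and to 18 without replicate 3. The median of 27 nuclear-encoded respiratory chain genes was -0.52 in replicate 2 and 0.22 in replicate 3. Of these, 7 were called lower and 1 higher, and the lower calls came to 4 without replicate 2 and to 14 without replicate 3. NDUFA1, a subunit of complex I, had 36.8 CPM in replicate 2 and 96.6 CPM in replicate 3, on either side of 55.0 to 61.9 CPM in vehicle. The 13 mitochondrially encoded mRNAs had a median of 0.68 in replicate 2 and -0.82 in replicate 3, with none called in either direction by edgeR or DESeq2 and 0 at an unadjusted edgeR p under 0.05. With library class as a covariate 1 was higher, and within the class of replicate 2 and vehicle 6 were higher. The 38 cytosolic ribosomal protein genes had medians of -0.24 and 0.29, with 1 called higher and 1 lower. Without replicate 2, 13 ribosomal protein genes were called higher, and without replicate 3, 7 were called lower. These lists are therefore given without a direction against vehicle. Single members still fell in both libraries, such as PSMD1, a subunit of the proteasome's regulatory particle, at 271, 301 and 279 CPM in vehicle and 164 and 179 CPM in the medium dose. Against the low dose 16 proteasome and 15 respiratory chain genes were lower and none higher, with medians of -0.44 and -0.53. Among all genes 6.82% were lower. Vehicle itself lay below all 16 low dose libraries of the 6 reference extracts in 9 proteasome, 15 respiratory chain and 19 ribosomal protein genes, against 4.47% of all genes.

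**Figure D4:**
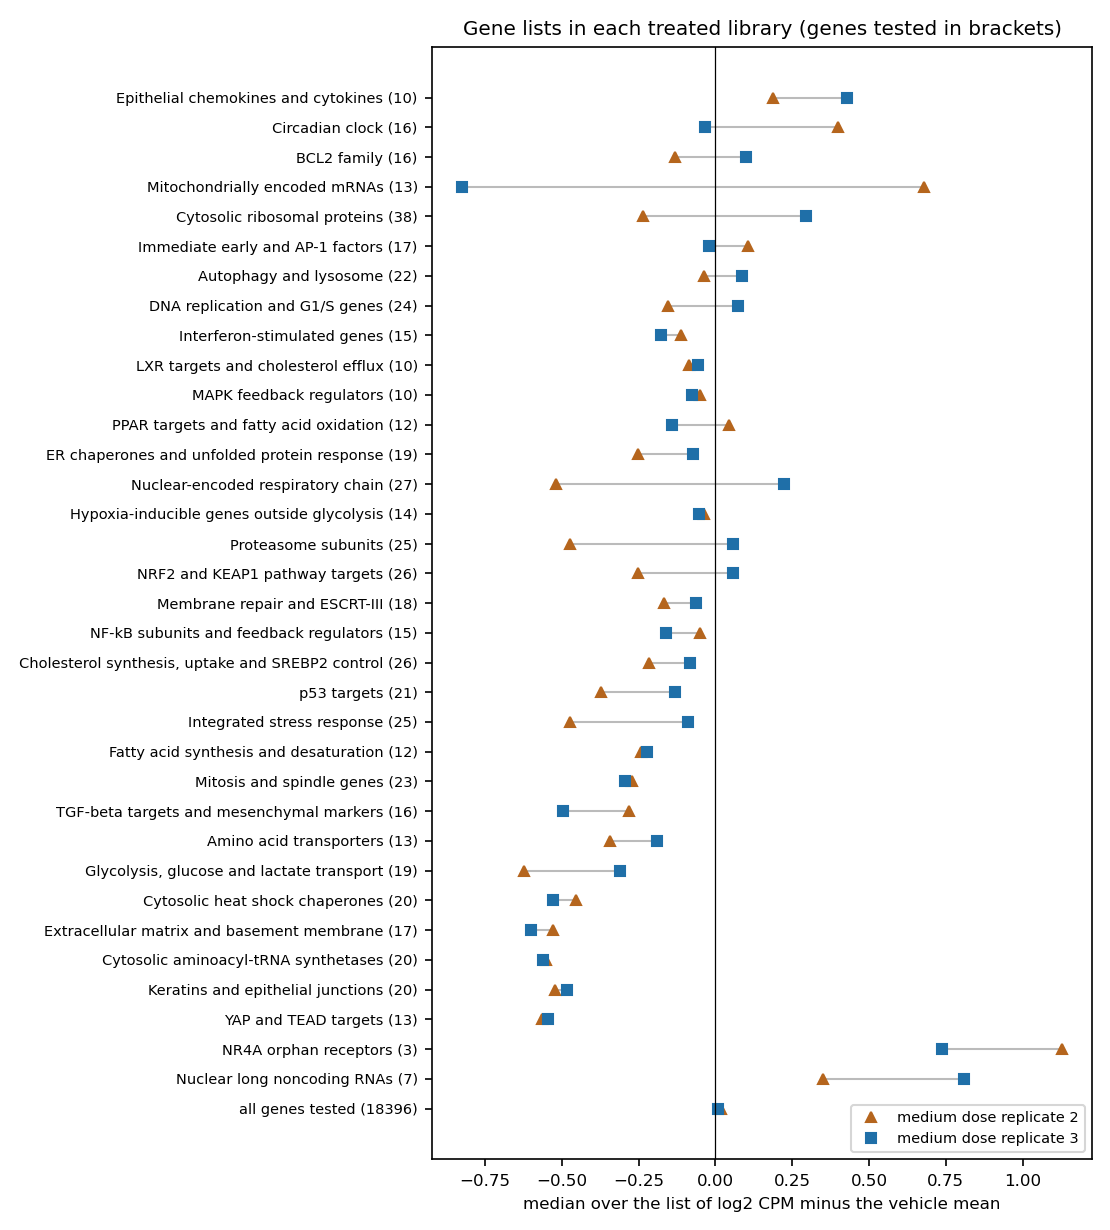
Median difference from the vehicle mean, in log2 CPM, of gene lists in medium dose replicate 2 and replicate 3, with 1 point per library. The synthetase, heat shock, keratin and matrix lists have both points below 0, the NR4A genes have both above, and the proteasome, respiratory chain, ribosomal and mitochondrial lists have points on opposite sides of 0.

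Among the lowest genes of the naming rule were AHNAK, SYNE1, PRKDC, MYH9, ZBED6, FLNA, SLX1B, DYNC1H1 and SPTAN1. MYH9 (ENSG00000100345, chromosome 22, 36281277 to 36388067), the heavy chain of nonmuscle myosin IIA, stood at 835, 866 and 880 CPM in vehicle, 291 and 296 CPM in the medium dose and 729 and 673 CPM in the low dose. Its log2 fold change was -1.55 ± 0.10 against vehicle (edgeR adjusted p = 4.86e-16) and -1.26 ± 0.10 against the low dose (edgeR adjusted p = 1.6e-12). FLNA, filamin A, which crosslinks actin, went from 2803, 2883 and 2907 CPM to 1079 and 951 CPM. SPTAN1, the alpha chain of nonerythroid spectrin, went from 375, 385 and 388 CPM to 144 and 152 CPM. In these 3 genes the 2 treated libraries were close to each other and far below vehicle. AHNAK, a giant scaffold protein of the cell cortex, went from 1010, 1070 and 1081 CPM to 232 and 390 CPM, the largest fall among the genes taken by the naming rule on all genes. SYNE1, which tethers the nucleus to actin, went from 68.8, 64.4 and 77.5 CPM to 15.5 and 27.0 CPM. PRKDC, the catalytic subunit of the DNA-dependent protein kinase, went from 865, 874 and 888 CPM to 210 and 370 CPM. In these last 3 genes replicate 2 was lower than replicate 3 by a wide margin. ZBED6 and SLX1B also met the rule, but ZBED6 is nested in another gene and SLX1B has a near-identical copy, so both are uncertain.

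Log2 fold changes against vehicle were lower for genes with longer coding sequences. Among 10761 protein-coding genes whose log2 CPM averaged at least 2, Spearman's rho between the log2 fold change and the length of the coding sequence was -0.32, given as a description across genes that share the same 5 libraries. The rho with the length of the untranslated regions was -0.06 and with GC content -0.07. The 91 genes with over 9000 coding bases had a median of -0.58, with 60 lower (65.9%) and 1 higher. The 3465 genes with up to 1000 coding bases had a median of 0.08, with 185 lower (5.34%) and 485 higher. In the longest class the median difference from vehicle was -0.70 in medium replicate 2 and -0.50 in replicate 3, and -0.32 and -0.35 in the low dose libraries. Against the low dose the relation did not hold, with a rho of 0.11 of opposite sign over the same genes, although the longest class had a median of -0.21.

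A fit with offsets that removed each library's trends on length and GC content gave MYH9 at -1.28, FLNA at -1.18, AHNAK at -1.12 and SYNE1 at -0.89. In that fit 19 synthetases were lower with a median of -0.48, while the matrix genes went from a median of -0.53 to -0.30. The part of transcript length or RNA quality in these falls was not tested.

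**Figure D5:**
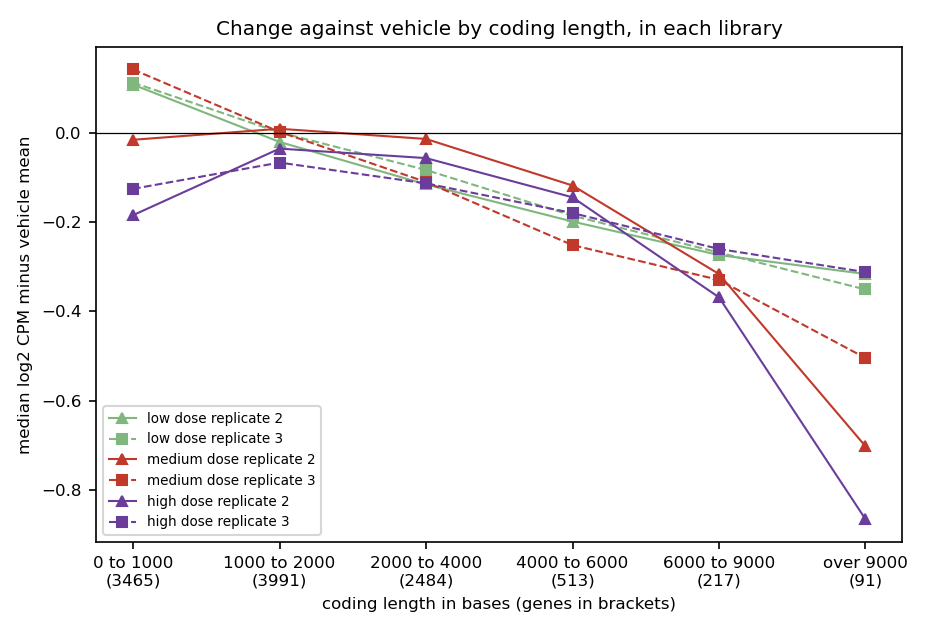
Median difference from the vehicle mean, in log2 CPM, of protein-coding genes in 6 classes of coding length (horizontal axis, in bases), with 1 line per low, medium and high dose library. All 6 lines lie below 0 for the longest class, with medium dose replicates 2 and 3 at -0.70 and -0.50 and the low dose libraries at -0.32 and -0.35.

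Epithelial structural genes fell together. Of 20 keratin and junction genes 15 fell and none rose, with a median of -0.57 and 10 to 15 called lower when 1 library was left out. KRT8, the main simple-epithelial keratin, stood at 3689, 3863 and 3659 CPM in vehicle, 1919 and 2048 CPM in the medium dose and 3658 and 3543 CPM in the low dose. The log2 fold change was -0.91 ± 0.11 (edgeR adjusted p = 2.83e-08), and the medium dose libraries lay below every vehicle and low dose library. KRT18, its partner, went from 2863, 2978 and 2827 CPM to 1738 and 1815 CPM. KRT19, a keratin of simple and ductal epithelia, went from 30.3, 29.8 and 27.8 CPM to 11.3 and 16.8 CPM. DSP, the desmosomal plaque protein desmoplakin, went from 214, 210 and 218 CPM to 112 and 110 CPM, with a log2 fold change of -0.94 that became -0.55 with the length and GC offsets. EPCAM, an epithelial adhesion molecule, was not called, at 4.64 to 5.08 CPM in vehicle and 4.48 and 5.12 CPM in the medium dose.

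Of 17 genes of the extracellular matrix and basement membrane 14 fell and none rose, against 9.65% lower among all genes. All 17 had both treated libraries below every vehicle library, which held for 20.4% of all genes tested. FN1, fibronectin, stood at 1255, 1213 and 1244 CPM in vehicle, 695 and 623 CPM in the medium dose and 910 and 961 CPM in the low dose, so the low dose lay between the other groups. COL12A1, a collagen that decorates fibrils, went from 14.8, 14.3 and 14.2 CPM to 4.68 and 7.93 CPM, a log2 fold change of -1.17 ± 0.17 (edgeR adjusted p = 1.57e-06) that became -0.74 with the offsets. Among 16 TGF-beta targets and mesenchymal markers 9 fell and none rose. Against the low dose 4 were lower and 1 was higher, with a median of -0.22. The low dose libraries themselves had medians of -0.26 and -0.29 against vehicle. Vehicle lay above all 16 low dose libraries of the 6 reference extracts in 5 of these genes, against 4.04% of all genes. VIM, the intermediate filament vimentin, went from 1012, 1044 and 1096 CPM to 651 and 640 CPM.

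Targets of YAP and TEAD, the transcription factors that respond to cell shape and density, fell against vehicle in 7 of 13 genes, with none higher and a median of -0.57. Against the low dose only 2 were lower and 1 was higher, with a median of -0.11. CCN1 and CCN2, matricellular proteins and classical YAP targets, differed between the references. CCN1 stood at 36.6, 34.1 and 37.8 CPM in vehicle, 20.6 and 22.2 CPM in the medium dose and 25.4 and 24.7 CPM in the low dose. On the log2 scale the change was -0.76 ± 0.08 against vehicle (edgeR adjusted p = 4.52e-09) and -0.22 ± 0.09 against the low dose (edgeR adjusted p = 0.104). CCN2 was at 36.8, 35.2 and 37.5 CPM in vehicle and at 20.0 and 23.3 CPM in the medium dose, with 24.3 and 24.8 CPM in the low dose. Vehicle lay above every low dose library of the other extracts in 6 of the 13 genes, both of these included. AXL, a receptor tyrosine kinase, was lower against both references, at 252, 253 and 259 CPM in vehicle, 132 and 146 CPM in the medium dose and 211 and 207 CPM in the low dose.

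Airway mucins were the least even of the fallen groups. Of 7 tested 4 fell, with a median of -0.39 in replicate 2 and -1.25 in replicate 3, and 1 was called lower without replicate 3. With the length and GC offsets 1 was lower, and the median went from -0.98 to -0.38. MUC5AC, the main secreted mucin of these cells, stood at 320, 282 and 326 CPM in vehicle and at 218 and 93.3 CPM in the medium dose, with 213 and 161 CPM in the low dose. The fitted log2 fold change of -0.99 ± 0.25 (edgeR adjusted p = 0.00358) became -0.51 without replicate 3 (edgeR adjusted p = 0.2) and -0.38 with the length and GC offsets. Against the low dose it was -0.27 ± 0.27 (edgeR adjusted p = 0.59), and the medium and low dose libraries overlapped.

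Genes of proliferation fell in part. Of 23 mitosis and spindle genes 13 fell and 1 rose, with a median of -0.23. MKI67, the proliferation marker Ki-67, stood at 822, 836 and 859 CPM in vehicle, 438 and 421 CPM in the medium dose and 601 and 530 CPM in the low dose. Its log2 fold change was -0.97 ± 0.14 (edgeR adjusted p = 1.61e-06) against vehicle, -0.52 with the offsets and -0.40 ± 0.15 against the low dose (edgeR adjusted p = 0.076). TOP2A, the topoisomerase that resolves chromosomes, went from 1032, 1017 and 1054 CPM to 569 and 625 CPM and was also lower than in the low dose, at 934 and 996 CPM. CDK1, the mitotic kinase, was not called, with 92.1 CPM in replicate 2 and 150 CPM in replicate 3 on either side of 105 to 108 CPM in vehicle.

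Of 24 DNA replication genes 10 fell and 5 rose, with a median of -0.02, and 3 were higher without medium dose replicate 3. RRM1, the large subunit of ribonucleotide reductase, went from 196, 206 and 204 CPM to 105 and 126 CPM. PCNA, the polymerase clamp, was not called, at 204 and 289 CPM around 259 to 268 CPM in vehicle. Targets of p53 did not rise, since 7 of 21 fell and none was called higher. CDKN1A, the cell cycle inhibitor p21, stood at 97.1, 97.4 and 93.0 CPM in vehicle and at 67.5 and 69.0 CPM in the medium dose, a log2 fold change of -0.49 ± 0.06 (edgeR adjusted p = 1.17e-07).

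Among the genes that rose were the NR4A receptors. All 3 rose against vehicle and against the low dose, with medians of 0.96 and 0.95. NR4A3 (ENSG00000119508, chromosome 9, 99821855 to 99866891) stood at 9.48, 9.23 and 8.90 CPM in vehicle, 9.22 and 9.28 CPM in the low dose, 20.2 and 15.7 CPM in the medium dose and 78.7 and 65.1 CPM in the high dose. The log2 fold change was 0.96 ± 0.12 against vehicle (edgeR adjusted p = 7.13e-08) and 0.95 ± 0.13 against the low dose (edgeR adjusted p = 1.28e-06). NR4A2 was at 4.48, 4.78 and 4.36 CPM in vehicle and at 14.6 and 7.61 CPM in the medium dose, with 5.29 and 5.71 CPM in the low dose. Its rise of 0.99 ± 0.19 over the low dose (edgeR adjusted p = 0.00026) became 0.47 without medium dose replicate 2 (edgeR adjusted p = 0.23). NR4A1 went from 38.0, 38.4 and 38.1 CPM to 73.6 and 48.9 CPM. In each of the 3 genes replicate 2 was higher than replicate 3, and both were above every vehicle and low dose library. The cyclic AMP response element, TGACGTCA, was searched on both strands and was in neither of the 2 NR4A promoters listed, against 2.03% of all genes. At that share a match in 2 promoters is rare in any case, so nothing is read from its absence.

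Other signal-responsive genes moved less. Of 17 immediate early and AP-1 genes 3 rose and 1 fell, near the 8.7% and 9.65% of all genes, with a median of 0.03 as over all genes. Besides ATF3, the members that rose were KLF4 and FOS. KLF4, a zinc finger factor, rose from 8.33, 8.70 and 8.86 CPM to 13.4 and 13.1 CPM. FOS rose from 4.08, 3.79 and 4.01 CPM to 5.88 and 5.16 CPM, but its edgeR adjusted p of 0.0335 passed 0.05 when any vehicle library or medium dose replicate 2 was left out, and the low dose libraries were at 5.11 and 6.08 CPM. JUN fell from 27.0, 30.1 and 31.3 CPM to 22.2 and 19.4 CPM, and the low dose libraries, at 22.9 and 22.7 CPM, were also below vehicle.

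Of 15 NF-kB subunits and feedback regulators 3 rose and 3 fell. The 3 that rose were the feedback regulators NFKBIA, TNFAIP3 and NFKBIZ. NFKBIA, which holds NF-kB in the cytoplasm, stood at 42.5, 45.7 and 44.5 CPM in vehicle, 65.9 and 56.4 CPM in the medium dose and 49.5 and 49.8 CPM in the low dose, a log2 fold change of 0.47 ± 0.08 (edgeR adjusted p = 2.16e-05). TNFAIP3, the deubiquitinase A20, went from 5.59, 5.84 and 5.68 CPM to 10.0 and 7.83 CPM, and without replicate 2 it had an edgeR adjusted p of 0.053. CXCL8, the neutrophil chemokine that NF-kB induces, was not called, at 0.909 to 1.15 CPM in vehicle and 0.833 and 1.47 CPM in the medium dose. Of 10 epithelial chemokines and cytokines 2 rose and 1 fell, with a median of 0.24. The members that rose, CXCL3 and CXCL2, had low levels. CXCL3 went from 1.11, 0.778 and 0.985 CPM to 2.19 and 1.86 CPM, with 2.02 and 1.54 CPM in the low dose. CXCL2 went from 1.78, 2.69 and 2.20 CPM to 3.44 and 3.58 CPM, and some fits without 1 library did not call it. Of 15 interferon-stimulated genes 3 rose and 2 fell. The 3 that rose, IFIT1, IFIT2 and IFIT3, stood under 3 CPM in all vehicle and medium dose libraries, and none was called without medium dose replicate 3.

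CHMP1B, an ESCRT-III subunit that helps cut and reseal membranes, rose in a list of membrane repair genes in which 7 of 18 fell. It stood at 70.9, 76.5 and 70.3 CPM in vehicle, 89.7 and 89.3 CPM in the low dose, 122 and 121 CPM in the medium dose and 208 and 196 CPM in the high dose. On the log2 scale the change was 0.75 ± 0.05 against vehicle (edgeR adjusted p = 3.47e-14) and 0.45 ± 0.06 against the low dose (edgeR adjusted p = 4.72e-07). The treated libraries were almost equal and above every vehicle and low dose library. ANXA6 and ANXA2, annexins that bind damaged membrane, fell by 0.86 and 0.62 on the log2 scale. Of 22 autophagy and lysosome genes 5 rose and 3 fell. SQSTM1, the cargo receptor p62, went from 775, 810 and 826 CPM to 959 and 1061 CPM, and CTSL, a lysosomal protease, from 223, 224 and 218 CPM to 290 and 316 CPM. The 5 higher calls came to 3 without medium dose replicate 3, and the 3 lower calls to 1 without replicate 2.

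Nuclear long noncoding RNAs were mostly higher than vehicle. Of 7 tested 6 rose against vehicle, with a median of 0.63, and 3 rose without medium dose replicate 3. Against the low dose 1 was called higher, with a median of 0.15, and 4 were with library class as a covariate. NEAT1, the RNA scaffold of paraspeckles, stood at 323, 297 and 311 CPM in vehicle, 700 and 625 CPM in the low dose and 782 and 874 CPM in the medium dose. The fitted log2 fold change was 1.42 ± 0.21 against vehicle (edgeR adjusted p = 3.51e-06) and 0.32 ± 0.24 against the low dose (edgeR adjusted p = 0.434). Both medium dose libraries lay above both low dose libraries, and the class covariate gave 0.61 (edgeR adjusted p = 0.000252). MALAT1, a speckle RNA, was at 620, 599 and 627 CPM in vehicle, 1123 and 1356 CPM in the medium dose and 1337 and 1264 CPM in the low dose. In 5 of the 7 genes vehicle itself lay below all 16 low dose libraries of the 6 reference extracts. EPB41L4A-AS1, an antisense transcript that hosts a small nucleolar RNA, went from 13.2, 12.7 and 12.4 CPM to 26.5 and 27.0 CPM, and its reads may be shared with the opposite strand, since no source used here gives the strand setting of the counting. Among the 10 highest genes of the naming rule, MVP-DT, PAPPA-AS1 and MSH5-SAPCD1 are divergent, antisense or readthrough transcripts that may share reads with a neighbour, so their values are uncertain. HSF4, a heat shock transcription factor, rose from 4.56, 4.00 and 3.83 CPM to 10.0 and 7.19 CPM, with 7.24 and 6.91 CPM in the low dose.

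The low dose as reference shared the library set and the replicate numbers of the medium dose. Against it, 2172 genes were called (11.8%), 917 higher (4.98%) and 1255 lower (6.82%), with 42 higher and 64 lower by at least 2-fold. The comparison uses the same 2 medium dose libraries as the one with vehicle, so these comparisons are not independent. The synthetases were lower in 16 of 20 genes (median -0.46), glycolysis in 13 of 19 (median -0.50), the heat shock list in 11 of 20 with 1 higher (median -0.34) and the keratins and junctions in 11 of 20 (median -0.48). These counts rest on the spread of all 57 libraries. With the 4 libraries alone edgeR called no gene, with 1476 genes at an unadjusted p under 0.05, while DESeq2 across all libraries called 2491. The total also moved with single libraries, to 670 without medium dose replicate 2, 4503 without medium dose replicate 3, 1006 without low dose replicate 2 and 1185 without low dose replicate 3. MIR9-1HG, a microRNA host transcript, was among the 5 highest genes, at 5.18 and 4.47 CPM in the low dose and 10.4 and 7.75 CPM in the medium dose.

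The low dose libraries of the same 6 extracts gave a further reference that shares no library with vehicle. Of the 1600 genes called higher than vehicle, 643 (40.2%) had both treated libraries above all 16 of these libraries, which is 3.5% of genes tested. Of the 1775 genes called lower, 1057 (59.5%) had both below them, which is 5.75% of genes tested. Over all genes tested the medium dose lay above all 16 in 5.92% and below all 16 in 7.78%. In 217 of the genes called higher (13.6%) vehicle lay below all 16, and in 276 of those called lower (15.5%) vehicle lay above all 16, against 4.47% and 4.04% of all genes tested.

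Against vehicle several other lists had counts near those of all genes (8.7% higher and 9.65% lower), and nothing is read from them. Of 7 targets of the aryl hydrocarbon receptor none was called by edgeR or DESeq2, with 0 at an unadjusted edgeR p under 0.05, and 1 was higher with library class as a covariate. CYP1A1, its classical target, stood at 1.03, 1.03 and 1.70 CPM in vehicle and at 1.09 CPM in both treated libraries. None of 5 metallothionein and zinc transport genes was called by either tool, with 0 at an unadjusted edgeR p under 0.05, but 2 were lower with the class covariate. Of 14 hypoxia-inducible genes outside glycolysis 1 fell. Of 16 circadian clock genes 2 rose, with a median of 0.40 in replicate 2 and -0.03 in replicate 3. Against the low dose 4 of these 16 were called higher and none lower, with a median of 0.23, against 4.98% of all genes higher. In 4 of the 16 genes both treated libraries lay above all 16 low dose libraries of the 6 reference extracts, against 5.92% of all genes. The calls of NR1D1, PER3 and PER2 against the low dose did not hold in every fit that left out 1 library. NR1D1 stood at 17.3 CPM in replicate 2 and 7.58 CPM in replicate 3, against 6.75 and 7.38 CPM in the low dose. PER2 stood at 65.3 and 38.1 CPM, against 36.2 and 36.3 CPM. Within the class of replicate 3 and the low dose the log2 changes of NR1D1, PER3 and PER2 were 0.10, 0.30 and 0.07.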

How the data were processed

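RNA was sequenced from A549 cells. The authors deposited expected counts per Ensembl gene (60675 genes, 60 libraries, 9.95% of values with decimals), and the submitters' processing notes name RSEM 1.3.3, STAR 2.7.3a, Trim Galore 0.6.5 and FastQC 0.11.9, with GRCh38 and hg38 as builds. No source used here gives the annotation release. Symbols, positions and lengths came from the supplied name table and GENCODE 29 (GRCh38). Lengths and GC content, also in the offsets, were those of the longest protein-coding transcript, or of the longest transcript where none is coding. Library totals ran from 17113963 to 33363661, and counting error covers sampling of reads only.

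Expected counts were rounded and fitted with edgeR 4.0.16 (R 4.3.3, limma 3.58.1): TMM, filterByExpr, 57 libraries in 22 groups of 2 or 3, so that all groups share the spread, 35 residual degrees of freedom, quasi-likelihood F-test, two-sided, Benjamini-Hochberg over 18396 genes, threshold 0.05. Each SE equals the size of the log2 change over the square root of F, and CPM are scaled to the TMM-adjusted library total. Per-library log2 CPM used a prior count of 2. DESeq2 1.42.0 was an alternative. The fitting code was tested on simulated data.

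The comparison, the 44 gene lists and the rules were chosen with earlier results of these data known, so no list is independent evidence of its direction. Named genes were the 10 highest and 10 lowest called genes (5 each against the low dose) with a usable symbol, a log2 CPM that averaged at least 2, both treated libraries beyond every reference library and a call with library class (ENSG00000282955 at 10 CPM) as a covariate. Added were the 3 most changed members of each list with at least 3 called and the first gene of any list. Other list members in the text were chosen after their values were seen. Promoters were RefSeq windows (GRCh38.p14), printed at no more than 30 bases where an exon is annotated. Library class, replicate block, size factors, no filter and leaving out libraries were tried, and the length and GC offsets were chosen after seeing the data.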

Additional observations from a re-analysis of the deposited data

How the results depend on the processing

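Against vehicle the call count of 3375 came to 894 with only the libraries compared, 3385 with DESeq2 size factors, 3397 with the DESeq2 Wald test, 3027 without the filter on low counts, 5039 with library class as a covariate, 5048 within library class 2 (1 treated library, taken to vary as other groups do) and 3884 with the length and GC offsets (54.4% higher, against 47.4%). It ranged from 2636 to 3454 when 1 library was left out. Against the low dose the count of 2172 came to 0 with only the libraries compared, 1346 within library class 1, 2259 without the filter, 2861 with the covariate and 3060 with the offsets, and ranged from 670 to 4503 when 1 library was left out, so that comparison depends on single libraries more than the one with vehicle does. Same-numbered libraries did not deviate together (r = 0.03 and 0.06 over 2 pairs each). The medium dose replicates differ in library class and those of vehicle and low dose do not. These values therefore cannot tell if the numbers pair the samples. With the replicate block the counts were 3542 and 2288. NDUFA1 reversed to -0.66 within library class 2. For named genes against vehicle, 1880 of the alternative values kept direction and side of the threshold, 126 lost and 60 gained the call, and for the low dose 1627, 242 and 39. The smaller fits also hold fewer samples, and the cause of these shifts was not tested. Depth limits genes of a few CPM, such as CHAC1 and the IFIT genes.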
